A study of Mus musculus with 8 samples.

Results

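Brain RNA was examined for 10 genes of neutrophils and of protein citrullination: 3 peptidylarginine deiminases (Padi2, Padi3, Padi4), 3 azurophil granule genes of neutrophils (Mpo, Elane, Prtn3), the paired cytosolic genes S100a8 and S100a9, and 2 surface genes (Ly6g, Csf3r). They were taken by symbol, each matched 1 row, and they are 10 of the 54532 genes in the deposited table. The 8 libraries came from brains of PBS-perfused mice, 2 each from 4 groups: wild-type (WT) mice after mock treatment, WT mice after chronic restraint stress, mice labelled CAA after mock treatment, and CAA mice after chronic restraint stress. CAA, cerebral amyloid angiopathy, is a deposition of amyloid-beta in the walls of brain vessels. The labels state neither the strain or transgene behind CAA nor the ages or the length of the restraint. The stated question was how chronic stress worsens the formation of neutrophil extracellular traps (NETs) and brain injury in CAA.

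NETs consist of decondensed DNA, shed by neutrophils and studded with proteins of their granules. The enzyme of Padi4 (PAD4) turns arginines of histones into citrulline, which loosens the chromatin, and the products of Mpo, Elane and Prtn3 (myeloperoxidase, neutrophil elastase and proteinase 3) are carried out on the fibres. Messenger RNAs of these 3 granule proteins are made chiefly by neutrophil precursors in bone marrow, and mature neutrophils hold the proteins with little of the message, whereas S100a8, S100a9 and Csf3r messages are abundant in mature neutrophils. Padi2 encodes the deiminase that predominates in brain and is known from oligodendrocytes, where myelin basic protein is a substrate.

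The libraries held 17275201 to 18894657 counts. Xist was high (3340 or more counts) and the Y-linked genes were at 0 in WT mock 1 and CAA stress 1, while the other 6 libraries had at most 24 Xist counts, so these 2 were female and 6 male. Striatal markers were low in WT mock 1 and CAA mock 2. The titles number the libraries within a group without saying that each came from another animal. Within WT mock and within CAA stress the sexes differ, so the 2 libraries of each came from different animals. For WT stress and CAA mock this is not known. The spread behind every p-value is that between libraries. It includes any difference between the sexes in WT mock and CAA stress, and may be technical in the other groups. In bulk RNA, fewer cells of a type and less RNA per cell cannot be told apart.

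The 5 deiminase genes of the mouse lie side by side on chromosome 4 of the mm10 build, from Padi6 at 140727355 to the end of Padi2 at 140952586, in the order Padi6, Padi4, Padi3, Padi1, Padi2. Prtn3 (chr10:79874476-79883174) and Elane (chr10:79886247-79888215) are neighbours 3072 bases apart, and S100a8 (chr3:90668978-90670035) and S100a9 (chr3:90692632-90695721) are 22596 bases apart. Mpo lies at chr11:87793581-87804413, Ly6g at chr15:75155240-75159126 and Csf3r at chr4:126024550-126044440. All 10 members had a promoter entry in RefSeq (GRCm38.p6). In the 250 bases before the RefSeq start, 5 of the 10 held the letters GAGGAAGT on either strand, which contain the purine-rich core that the myeloid factor PU.1 binds. They were Mpo, Elane, Prtn3, S100a8 and Ly6g. Of all 32851 promoter windows of that length 2.44% held these letters. The motif was chosen after the sequences were seen, and a match is a description of letters, not a site in use. The stretches around the matches are shown because these 5 members, all of the granule genes among them, share the letters. They end before the first exon of the transcript that starts nearest (for Prtn3, whose longest transcript starts farther upstream, the stretch lies in an intron of that transcript), run 5′ to 3′ on the gene's strand, and have the match in capitals (in S100a8 it is on the opposite strand and reads ACTTCCTC).
Mpo, chr11:87793534-87793580: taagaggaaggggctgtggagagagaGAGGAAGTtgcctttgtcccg
Elane, chr10:79886187-79886246: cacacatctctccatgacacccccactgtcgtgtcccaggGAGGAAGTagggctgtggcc
Prtn3, chr10:79879532-79879613: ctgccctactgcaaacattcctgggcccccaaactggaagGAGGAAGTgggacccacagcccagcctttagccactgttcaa
S100a8, chr3:90668859-90668946: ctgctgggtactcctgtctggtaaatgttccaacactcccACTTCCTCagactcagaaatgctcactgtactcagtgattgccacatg
Ly6g, chr15:75155190-75155239: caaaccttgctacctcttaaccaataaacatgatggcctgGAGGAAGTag

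The deiminase promoters held no such match and differed in CG content. Padi2, the deiminase with the most counts, had 17 CG dinucleotides in its 250 bases, more than 76.5% of all windows had, while Padi3 and Padi4 had 3 each. The last 120 bases before the first exon show the contrast, with CG in capitals: 10 in Padi2 (plus strand) and 2 in Padi4 (minus strand).
Padi2, chr4:140906224-140906343: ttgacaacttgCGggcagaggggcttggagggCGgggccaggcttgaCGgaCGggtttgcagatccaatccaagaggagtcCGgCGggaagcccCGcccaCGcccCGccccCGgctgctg
Padi4, chr4:140774237-140774356: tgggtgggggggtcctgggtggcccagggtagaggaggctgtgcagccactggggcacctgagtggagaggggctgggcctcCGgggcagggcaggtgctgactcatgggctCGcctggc

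Levels of the 10 genes spanned from Padi2 to near nothing. On the FPKM scale, which divides by gene length and so allows genes to be compared, Padi2 lay at 6.79 ± 2.49 (SD over 8 libraries). Csf3r at 1.49 ± 0.366, S100a9 at 1.47 ± 1.33, S100a8 at 0.981 ± 0.906 and Prtn3 at 0.846 ± 0.371 FPKM followed, and neighbours among these 4 lay within 1 SD of each other. Elane (0.0417 ± 0.0644 FPKM), Mpo (0.0381 ± 0.0358), Ly6g (0.0148 ± 0.0420), Padi4 (0.00554 ± 0.0103) and Padi3 (0.00198 ± 0.00559) came last, with neighbours again within 1 SD. These last 5 genes had 32 counts between them over all 8 libraries. They did not reach the filter on low counts (about 10 counts in at least 2 libraries) and were not tested, while Padi2, Csf3r, Prtn3, S100a8 and S100a9 were.

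**Figure D1:**
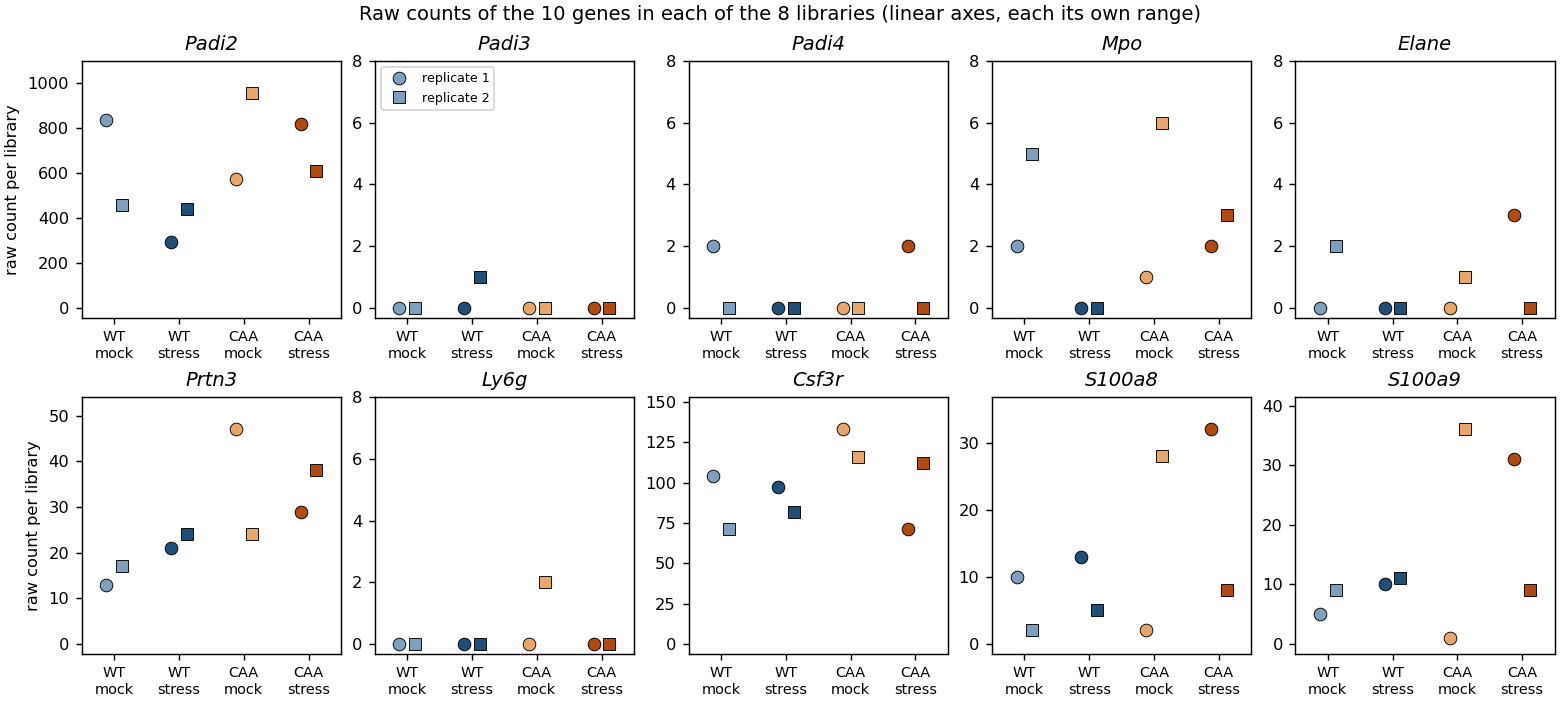
Raw counts (y axis, linear, a separate range for each gene) of the 10 genes in the 8 libraries, by group on the x axis; circles are replicate 1 and squares replicate 2. Padi3, Padi4, Mpo, Elane and Ly6g had 0 to 6 counts per library, and S100a8 and S100a9 stood out in CAA mock 2 and CAA stress 1.

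Of the tested genes 0 passed in any of the 5 comparisons made with edgeR's quasi-likelihood test at a Benjamini-Hochberg adjusted p of 0.05. The 5 comparisons were CAA against WT averaged over treatment, stress against mock averaged over genotype, stress in WT, stress in CAA, and the interaction, which asks whether the stress effect differs between the genotypes. Among all 17182 genes tested, 0.0116% were called for CAA averaged and 0% for each of the other 4 comparisons, so few calls were made anywhere. At an unadjusted p under 0.05 stood Padi2 and Prtn3 for CAA averaged (8.38% of all genes did) and Padi2 for stress in WT (1.59% of all genes). For stress averaged, stress in CAA and the interaction 0 of the 5 members had an unadjusted p under 0.05, against 3.82%, 6.94% and 3.46% of all genes. With DESeq2 0 members were called in the 5 comparisons. Between groups that did not overlap in CPM, 1 of the 5 tested members was higher for CAA averaged (2% of all genes) and 0 lower (2.76%), and for stress averaged 0 were higher (0.96%) and 0 lower (0.867%). For stress in WT 2 were higher (13.2%) and 1 lower (13.5%), and for stress in CAA 0 were higher (18.3%) and 1 lower (19%).

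**Figure D2:**
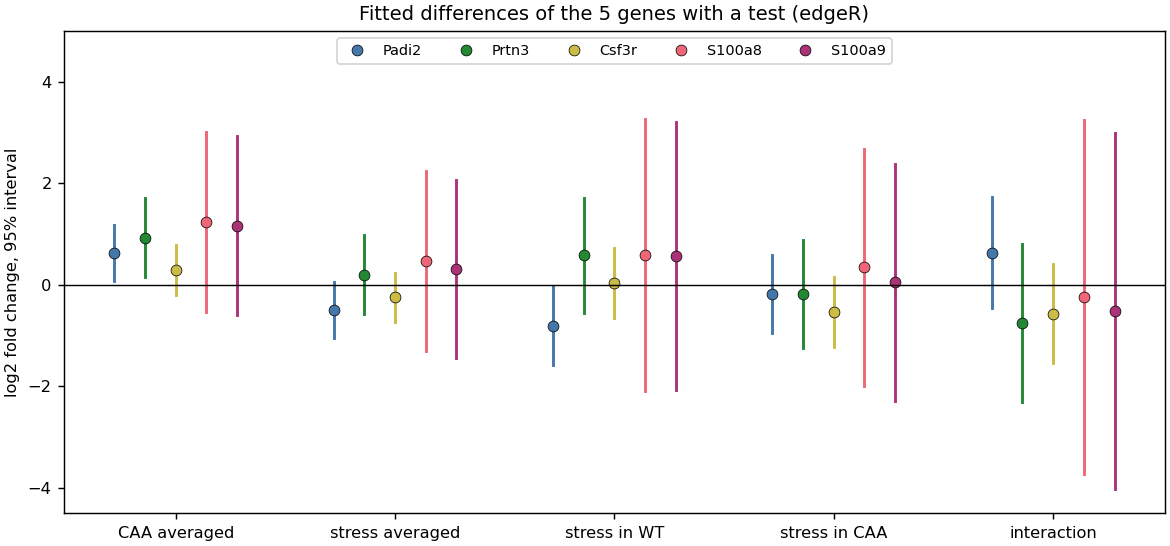
Log2 fold changes (points) with 95% intervals (bars) from edgeR for the 5 tested members in the 5 comparisons. The intervals of S100a8 and S100a9 are the widest, from -0.53 to 3.02 for S100a8 in CAA averaged.

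Padi4, the deiminase of NET formation, had 2 counts in WT mock 1, 2 in CAA stress 1 and 0 in the other 6 libraries. WT and CAA thus had 2 counts each. Its 4 counts lay in the 2 female libraries. With the counts of a group set against its summed library totals, CAA stress had 0.0552 CPM (counts scaled to library size; exact Poisson 95% interval 0.00669 to 0.1996), and 0 counts in CAA mock allow up to 0.0859 CPM (3 counts). The interval holds that limit, and a difference was not detectable at this depth. These intervals cover counting error only. Padi3, a deiminase of skin and hair follicles, had 1 count, in WT stress 2, and 0 elsewhere.

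Padi2 carried 97.9% of the 5087 counts of the 5 deiminase genes. Of the other members of the family, Padi6, an oocyte gene, had 92 counts and Padi1, an epidermal gene, had 12. Padi1 was detected in WT stress 1 (5 counts), WT stress 2 (3) and CAA stress 2 (4) and was at 0 in the 4 mock libraries and in CAA stress 1. With 12 counts in all, Padi1 lay below the filter on low counts, and a difference between stress and mock was not tested. Padi6 was tested and lay at a log2 fold change of -0.03 ± 0.47 (SE) for CAA averaged (edgeR adjusted p = 0.992).

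Padi2 had 834 and 458 counts in WT mock, 292 and 441 in WT stress, 573 and 955 in CAA mock, and 816 and 609 in CAA stress. The lowest 3 libraries were all WT, yet WT mock 1 was the second highest of the 8, so the genotypes overlapped. Padi2 averaged 27.7 ± 12.2 CPM over the WT libraries and 41.1 ± 10.04 CPM over the CAA libraries (TMM-normalised, SD, n = 4 each). The log2 fold change for CAA averaged was 0.62 ± 0.24 (SE, edgeR adjusted p = 0.586). Without the filter on low counts the same value, 0.63 ± 0.14, was called (edgeR adjusted p = 0.00302), in a fit that called 0.757% of 29446 genes. In that fit 0 of the 10 members were called for stress averaged (0.166% of all genes), stress in WT (0.0374%), stress in CAA (0.38%) or the interaction (0.0577%). DESeq2 gave an adjusted p of 0.269, and over all the alternatives tried the adjusted p ran from 0.00302 to 0.965.

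In WT brains, both stressed libraries had less Padi2 (20.1 ± 5.89 CPM) than both mock libraries (35.3 ± 13.5 CPM, SD, n = 2 each), and 13.5% of all genes were lower without overlap in that comparison. The log2 fold change was -0.81 ± 0.34 (SE, edgeR adjusted p = 1). Without WT mock 1 it was -0.35. In CAA brains the groups overlapped, at 43.6 ± 14.4 CPM after mock and 38.6 ± 8.39 CPM after stress (SD, n = 2 each; log2 fold change -0.18 ± 0.34, edgeR adjusted p = 0.909), and the sign turned without CAA mock 2 (0.20) or CAA stress 2 (0.026). The interaction was 0.63 ± 0.48 (SE, edgeR adjusted p = 0.995). It ran from 0.17 to 1.01 with 1 library left out and was -0.055 in male libraries alone. Both female libraries, WT mock 1 and CAA stress 1, are in groups that enter the interaction with the same sign. For stress averaged, Padi2 lay at -0.49 ± 0.24 (SE, edgeR adjusted p = 0.92), at -0.27 without WT mock 1, at -0.30 without CAA mock 2 and at -0.075 without both.

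Padi2 was set against the level of oligodendrocyte genes, and the correlation did not pass the threshold once adjusted. The summed level of 12 oligodendrocyte genes, among them the myelin gene Mbp, ran from 6351 to 10079 CPM in WT and from 6343 to 16218 CPM in CAA. It was highest in CAA mock 2 and CAA stress 1, where Padi2 stood at 53.8 and 44.5 CPM, and low in WT stress 1, where Padi2 was lowest (16.0 CPM). The lowest sum was in CAA stress 2, where Padi2 stood at 32.6 CPM. Across the 8 libraries Pearson's r of the log2 levels was 0.797 (exact permutation p = 0.0181, adjusted over 3 relations 0.051) and Spearman's rho was 0.81 (exact permutation p = 0.0218, adjusted 0.0653). Without CAA mock 2 and CAA stress 1, the farthest from the median, r was 0.6, and in the 6 male libraries it was 0.788. Per 1000 counts of the 12 genes, Padi2 had 2.52 to 4.45 counts in WT and 3.02 to 5.14 in CAA, which overlap, and the highest was CAA stress 2. The 12 genes were all tested. For CAA averaged 12 of 12 had a positive log2 fold change, with a median of 0.38 against 0.0011 over all genes, and for stress averaged 12 of 12 had a negative one, with a median of -0.38 against 0.0034; 0 of 12 passed the test in either. Cnp, a myelin enzyme, lay at 0.45 ± 0.22 and Cldn11, the tight junction protein of myelin, at 0.47 ± 0.25 for CAA averaged (SE, edgeR adjusted p = 0.618 and 0.642). The part of the oligodendrocyte level in the Padi2 values was not tested.

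**Figure D3:**
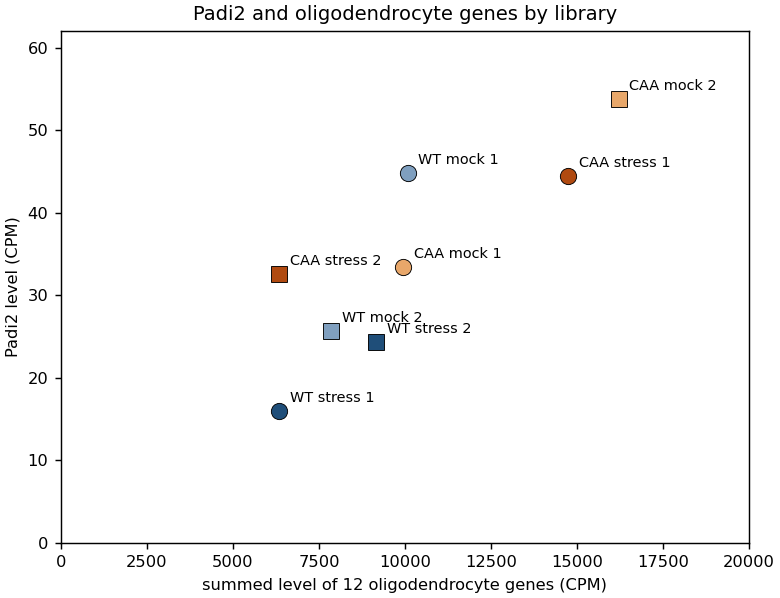
Padi2 level (y axis, CPM) against the summed level of 12 oligodendrocyte genes (x axis, CPM), 1 point per library, circles for replicate 1 and squares for replicate 2. CAA mock 2 lies highest on both axes, and WT stress 1 has the lowest Padi2 level.

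Over 13431 other genes with a mean of at least 1 CPM, those whose log2 levels followed Padi2 most closely across the 8 libraries were Limk1, a kinase of the actin cytoskeleton (r = 0.989), Ppfia4, a liprin (r = 0.973), and Esrrb, an orphan nuclear receptor (r = 0.966). Of the oligodendrocyte genes Mag, a glycoprotein of the myelin sheath, came nearest, at rank 37 (r = 0.911), and the other 11 lay at ranks 210 to 1833 (r from 0.834 down to 0.527). An antisense gene, Gm13031, shares 149 exon bases with Padi2. It had 8 to 29 counts per library against 292 to 955 for Padi2. No source used here says if the counting was stranded, so the origin of reads in the shared bases cannot be told apart.

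Mpo, the peroxidase gene of the azurophil granule, had 2 and 5 counts in WT mock, 0 and 0 in WT stress, 1 and 6 in CAA mock and 2 and 3 in CAA stress. It was at 0 in WT stress alone. Over both libraries WT mock had 0.189 CPM (exact Poisson 95% interval 0.0759 to 0.389), and 0 counts in WT stress allow up to 0.0819 CPM, which lies inside that interval. Over genotypes, 7 counts in WT (0.0950 CPM, 0.0382 to 0.196) and 12 in CAA (0.169 CPM, 0.0872 to 0.295) had overlapping intervals. Within CAA, 7 counts after mock and 5 after stress differed by less than counting error. In a fit without a filter Mpo had an adjusted p of 1 for stress in WT (edgeR, unadjusted 0.0433).

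Elane, the neutrophil elastase gene, had 2 counts in WT mock 2, 1 in CAA mock 2, 3 in CAA stress 1 and 0 in the other 5 libraries. With 2 counts in WT and 4 in CAA the intervals overlapped (0.00329 to 0.0980 and 0.0153 to 0.144 CPM). Ly6g, the surface antigen by which mouse neutrophils are usually sorted, had 2 counts in CAA mock 2 and 0 in the other 7 libraries. In WT, 0 counts allow up to 0.0407 CPM of Ly6g.

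Prtn3, the proteinase 3 gene next to Elane, had 13 and 17 counts in WT mock, 21 and 24 in WT stress, 47 and 24 in CAA mock, and 29 and 38 in CAA stress. In CPM the lowest CAA library exceeded the highest WT library, by a narrow margin between WT stress 2 (1.32 CPM) and CAA mock 2 (1.35 CPM), which had 24 counts each; 2% of all genes were higher without overlap. Prtn3 averaged 1.03 ± 0.268 CPM over WT and 1.93 ± 0.614 CPM over CAA libraries (SD, n = 4 each). The log2 fold change was 0.92 ± 0.36 (SE, 95% interval 0.14 to 1.70) with an edgeR adjusted p of 0.578. Under the alternatives tried the adjusted p ran from 0.4 to 0.965. For stress in WT it lay at 0.58 ± 0.52, with both stressed libraries above both mock libraries (13.2% of all genes were), and for stress in CAA at -0.18 ± 0.48 (SE, edgeR adjusted p = 1 and 0.938). The latter turned positive without CAA mock 1 (0.42) or CAA stress 1 (0.0012). For stress in WT it was 0.37 without WT mock 1. The interaction was -0.76 ± 0.71 (SE, edgeR adjusted p = 0.995), and ran from -1.18 without CAA mock 2 to -0.16 without CAA mock 1.

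Prtn3 had many more counts than its neighbour Elane or than Mpo, and its annotated span differs from them. In the deposited table it begins 5191 bases before its RefSeq start (79879667), and 159 of its 1732 exon bases are shared with Plppr3, a neuronal phospholipid phosphatase-related gene on the opposite strand. Plppr3 had 626 to 1068 counts per library, with 33.7 to 39.5 CPM in WT and 34.4 to 57.2 CPM in CAA. Its log2 fold change for CAA averaged was 0.33 ± 0.13 (SE, edgeR adjusted p = 0.586). Across the 8 libraries Prtn3 and Plppr3 had a Pearson's r of 0.743 (exact permutation p = 0.034, adjusted over 3 relations 0.051) and a Spearman's rho of 0.714 (exact permutation p = 0.0576, adjusted 0.0864); without CAA stress 1 and CAA stress 2 r was 0.813, and in the 6 male libraries 0.699. Gene counts do not show which exons the Prtn3 reads came from, and the part of Plppr3 reads was not tested. The genes nearest to Prtn3 in pattern were Nle1 and Bysl, both of ribosome assembly (r = 0.950 and 0.944), and Ly6h, a neuronal member of the Ly6 family (r = 0.948). They were picked as the largest of 13431 correlations over 8 libraries and were not tested.

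S100a8 and S100a9, whose products form the calprotectin dimer of neutrophil cytosol, varied more within the CAA groups than between them. S100a8 had 10 and 2 counts in WT mock, 13 and 5 in WT stress, 2 and 28 in CAA mock, and 32 and 8 in CAA stress. S100a9 had 5 and 9 counts in WT mock, 10 and 11 in WT stress, 1 and 36 in CAA mock, and 31 and 9 in CAA stress. The same 2 libraries, CAA mock 2 and CAA stress 1, were high for both genes and held 59.9% of their 212 counts. The oligodendrocyte genes also summed highest in these 2 libraries (16218 and 14750 CPM, at most 10079 elsewhere). Choroid plexus genes were at 795 CPM in CAA stress 1, but higher in WT stress 2 (983 CPM). Striatal genes were low in CAA mock 2 (154 CPM), but also in WT mock 1 (164 CPM). S100a8 and S100a9 had 5 and 11 counts in WT stress 2 and 10 and 5 in WT mock 1. The part of these other marker genes in the S100a8 and S100a9 values was not tested. In counts, CAA mock 1 was the lowest of the 8 for S100a9 and tied for the lowest for S100a8.

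S100a8 averaged 0.409 ± 0.267 CPM over WT and 0.967 ± 0.814 CPM over CAA libraries (SD, n = 4 each), a log2 fold change of 1.24 ± 0.80 (SE, edgeR adjusted p = 0.679). S100a9 averaged 0.482 ± 0.148 and 1.06 ± 0.944 CPM (SD, n = 4 each), a log2 fold change of 1.16 ± 0.79 (SE, edgeR adjusted p = 0.694). Without CAA mock 2 the sign of both turned, to -0.15 and -0.84, and without CAA stress 1 they were 0.58 and 0.59. For stress in CAA the values were 0.35 ± 1.05 and 0.05 ± 1.05 (SE, edgeR adjusted p = 0.943 and 0.992). Leaving out CAA mock 2 moved them to 3.14 and 4.06, leaving out CAA stress 1 to -0.96 and -1.10, and leaving out CAA mock 1 to -0.54 and -0.90, so the direction rested on single libraries. For stress in WT they were 0.58 ± 1.20 and 0.57 ± 1.18 (SE, edgeR adjusted p = 1 for both). Both stressed WT libraries exceeded both mock ones for S100a9, as 13.2% of all genes did. The margin was narrow, between WT mock 2 (0.505 CPM) and WT stress 1 (0.547 CPM). The S100a8 value turned negative without WT mock 2 (-0.12) or WT stress 1 (-0.24). Without WT mock 1 the values were 2.07 and 0.19. The interactions were -0.23 ± 1.57 and -0.52 ± 1.57 (SE, edgeR adjusted p = 0.999 and 0.995).

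The sum of 6 further neutrophil markers was also highest in those 2 libraries, at low counts and not gene by gene. The 6 defining markers (Camp, Ngp, Ltf and Mmp8 of the granules, the resistin-like gene Retnlg, and the chemokine receptor Cxcr2) summed to 32 counts in CAA mock 2 and 26 in CAA stress 1, against 9 to 22 in the 4 WT libraries, 18 in CAA stress 2 and 2 in CAA mock 1. Singled out after their values were seen, Ngp was highest in WT stress 2 (12 counts), and Retnlg was highest in CAA stress 2 (6) and at 0 in CAA mock 2. Mpo, Elane, Ly6g and Padi4 together had 9 and 7 counts there, 7 in WT mock 2 and 0 to 4 in the other 5. Red cell genes, a sign of blood left after perfusion, did not peak in the same libraries. They summed to 2180 counts in WT stress 1 and 42 to 309 in the other 7, with 137 in CAA mock 2 and 309 in CAA stress 1. The share of blood in these values was not tested.

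**Figure D4:**
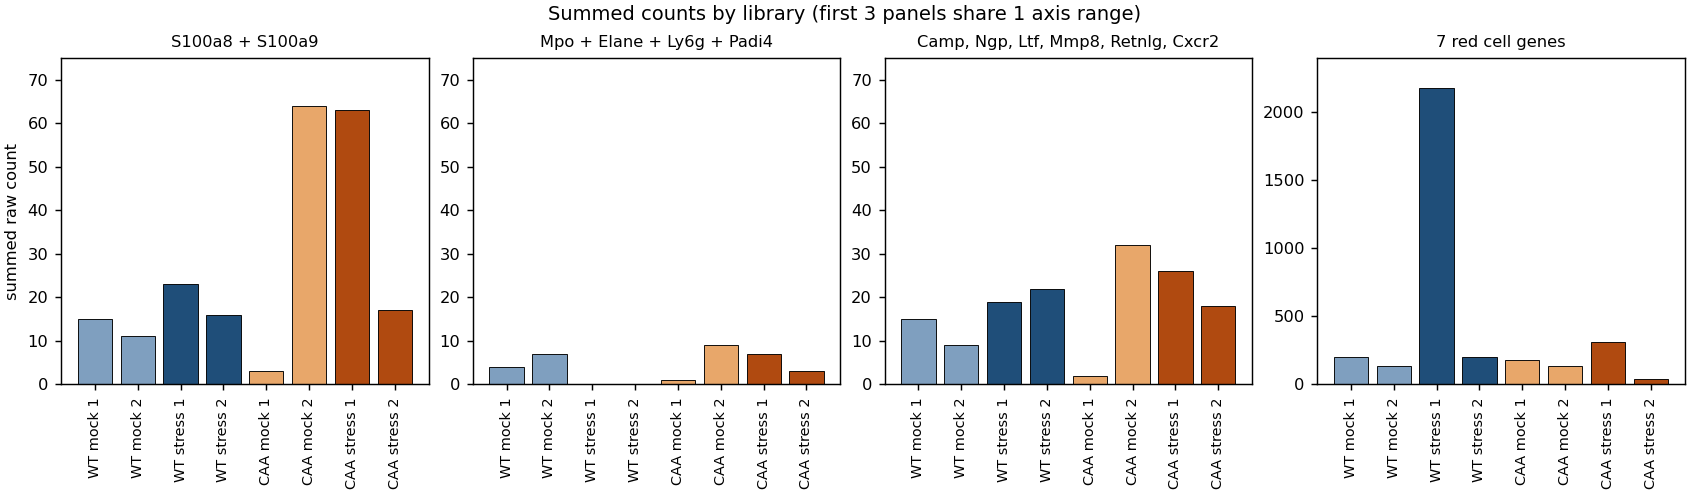
Summed raw counts (y axis, from 0) in each library (x axis, coloured by group) of S100a8 with S100a9, of Mpo, Elane, Ly6g and Padi4, of 6 other neutrophil markers, and of 7 red cell genes on an axis of its own. CAA mock 2 and CAA stress 1 are highest in the panel of S100a8 with S100a9 and in that of the 6 markers, and WT stress 1 in that of red cell genes.

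Csf3r, the receptor for granulocyte colony-stimulating factor, had 104 and 71 counts in WT mock, 97 and 82 in WT stress, 133 and 116 in CAA mock, and 71 and 112 in CAA stress. CAA mock had the highest mean of the 4 groups, and the 2 genotypes overlapped. In CAA brains it stood at 7.15 ± 0.873 CPM after mock and 4.94 ± 1.51 CPM after stress (SD, n = 2 each); 19% of all genes were lower without overlap there. The log2 fold change was -0.53 ± 0.31 (SE, edgeR adjusted p = 0.699). In WT it was 0.04 ± 0.32 (SE, edgeR adjusted p = 1), at 4.79 ± 1.14 and 4.91 ± 0.558 CPM (SD, n = 2 each), and its sign turned without WT mock 2 (-0.19) or WT stress 1 (-0.087). The interaction was -0.57 ± 0.45 (SE, edgeR adjusted p = 0.995), CAA averaged 0.29 ± 0.22 (edgeR adjusted p = 0.728) and stress averaged -0.25 ± 0.22 (edgeR adjusted p = 0.92). With 1 library left out, these ran from -0.93 (without CAA stress 2) to -0.27 (without CAA stress 1), from 0.11 (without CAA stress 2) to 0.44 (without CAA stress 1), and from -0.42 (without CAA stress 2) to -0.11 (without CAA stress 1). Stress in CAA ran likewise from -0.89 to -0.24.

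Of the 2 libraries high in S100a8 and S100a9, CAA mock 2 was second highest for Csf3r (6.53 CPM), while CAA stress 1 had the lowest Csf3r level (3.87 CPM). Microglia are also known to carry Csf3r. The summed level of 12 microglial genes ran from 367 to 521 CPM in WT and 399 to 572 CPM in CAA, and its correlation with Csf3r over the 8 libraries was weak (Pearson's r = 0.18, exact permutation p = 0.664, adjusted over 3 relations 0.664; Spearman's rho = 0.0714, exact permutation p = 0.882, adjusted 0.882; r = 0.18 without CAA stress 2 and WT stress 2, and 0.317 in the 6 male libraries). Of the 12 genes 7 had a positive log2 fold change for CAA averaged (median 0.064) and 11 a negative one for stress averaged (median -0.18), and 0 passed. Among the genes nearest in pattern to Csf3r were Ptpre, a receptor phosphatase (r = 0.938), and Mcm6, a subunit of the replicative helicase (r = 0.924). They too were picked from 13431 correlations over 8 libraries and were not tested.

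Beyond the 10 members, 37 further neutrophil genes were listed, 17 of granule proteins and 20 of the surface and cytosol. Of these 13 had enough counts to be tested and 0 passed in the 5 comparisons. Each of the other 24 had at most 52 counts over the 8 libraries. The granule genes Ctsg and Bpi, the receptor Trem1 and the precursor gene Ms4a3 were at 0 in all 8 libraries, as a count of 0 allows up to 0.0207 CPM over the series. The lysozyme gene Lyz2 of the granule list had 128 to 268 counts and is also made by microglia (log2 fold change 0.17 ± 0.22 for CAA averaged, SE, edgeR adjusted p = 0.841). Lcn2, the iron-binding lipocalin 2 of neutrophils and of reactive astrocytes, had 67 counts in CAA stress 1 and 1 to 24 in the others (log2 fold change 1.29 ± 0.70 for CAA averaged and 1.71 ± 0.70 for stress averaged, SE, edgeR adjusted p = 0.641 and 0.92). Hdc, the histamine-forming enzyme of mast cells, neutrophils and some neurons, lay at 0.65 ± 0.42 and the decoy receptor Il1r2 at 0.67 ± 0.56 for CAA averaged (SE, edgeR adjusted p = 0.681 and 0.745). The granule list summed to 28.9 ± 4.88 CPM over WT and 30.1 ± 6.90 CPM over CAA libraries, and the other list to 16.9 ± 1.77 and 17.6 ± 1.84 CPM (SD, n = 4 each), which differ by less than the spread between libraries. In CAA mock 2 and CAA stress 1 the granule list was at 34.7 and 36.6 CPM and the other list at 17.6 and 19.4 CPM, against 35.4 and 19.05 CPM in WT stress 1. Most counts of the granule list came from Lyz2 (1453 in all), Ncf1 (1197) and Pglyrp1 (835). Most of the other list came from Itgam (1054) and Itgb2 (707). The list sums thus mainly follow these few genes, and the part of neutrophils in them was not tested.

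Of 9 genes of chromatin release and its clearance 7 were tested and 0 passed. Hmgb1, a chromatin protein that acts as a danger signal once released, had 976 to 1596 counts per library and log2 fold changes of -0.20 ± 0.11 for CAA averaged and -0.26 ± 0.11 for stress averaged (SE, edgeR adjusted p = 0.629 and 0.92). Its value was 0.07 ± 0.15 for stress in WT, -0.58 ± 0.15 for stress in CAA and -0.65 ± 0.22 for the interaction (SE, edgeR adjusted p = 1, 0.696 and 0.995). For stress averaged the 7 tested genes had 7 negative values, with a median of -0.26 against 0.0034 over all genes.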

How the data were processed

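Per the submitters' processing notes, the authors made raw counts of reads per gene with HISAT2 2.0.5 and featureCounts 1.5.0-p3 on the mm10 build; no label states the strand setting or the annotation. A second deposited table holds the authors' FPKM values, used here only to compare levels between genes. RNA was column-purified total RNA, per the labels' protocols. Start and end of all 10 members equal those in GENCODE vM21.

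Libraries were grouped by their titles. Counts were tested with edgeR 4.0.16 (R 4.3.3): filterByExpr (minimum count 10, minimum total 15; 17182 of 54532 genes kept), TMM, and a robust quasi-likelihood fit of 4 group means over 8 libraries, which left 4 residual degrees of freedom. P-values are two-sided and adjusted by Benjamini-Hochberg over all genes tested, with a threshold of 0.05. With 2 libraries against 2, an exact permutation test cannot go below p = 0.333. The fit was also run on simulated counts with the same spread for every gene. Such counts lack the sex and tissue differences within groups, so they do not show how the fit performs here. Replicates of a group differed by more than counting noise, so none was counted as a repeat.

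The members, lists and alternatives were chosen with earlier results of these data known. All 10 members are named, with up to 4 called genes or the 2 of smallest p (CAA averaged) of the lists described, the 3 genes most correlated with each tested member of at least 1 CPM, and overlapping genes; a few genes that this rule selects are not reported here. Over 13 lists 0 of 82 tested genes passed in any comparison. Alternatives were DESeq2 size factors, DESeq2 1.42.0 on the filtered genes, no filter, a replicate block, male libraries alone, the 6 libraries not low in striatal markers, and each library left out.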

Additional observations from a re-analysis of the deposited data

How the results depend on the processing

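Over 25 log2 fold changes (5 members, 5 comparisons) and 14 alternatives, 314 of 350 values kept their direction and side of the threshold, 35 turned sign and 1 newly passed: Padi2 for CAA averaged without the filter on low counts (0.633). So 1 member was called there, and 0 members lay below a filter. With no filter 223, 49, 11, 112 and 17 of all genes were called for CAA averaged, stress averaged, stress in WT, stress in CAA and the interaction, against 2, 0, 0, 0 and 0. DESeq2 called 46 for CAA averaged, 3 for stress averaged, 14 for stress in CAA and 4 for the interaction. Male libraries alone gave 7 for CAA averaged, 3 for stress averaged, 8 for stress in CAA and 1 for stress in WT. Without WT mock 1 and CAA mock 2, the libraries low in striatal markers, 4 were called for CAA averaged and 1 each for stress in WT, stress in CAA and the interaction. Each library left out in turn gave 2 to 5, 0 to 4, 0 to 2, 0 to 0 and 0 to 1 in the 5 comparisons. The cause of these shifts was not tested.

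In male libraries alone these log2 fold changes turned sign: S100a9 (-0.46) and Csf3r (0.027) for stress averaged, Prtn3 (0.00095), S100a8 (-0.97) and S100a9 (-1.10) for stress in CAA, and Padi2 (-0.055) for the interaction. Without the 2 libraries low in striatal markers S100a9 turned for CAA averaged (-1.03), Prtn3 for stress averaged (-0.12), Padi2 for stress in CAA (0.20), and S100a8 (1.07) and S100a9 (3.88) for the interaction. With 1 library left out, S100a8 ran from -0.15 to 1.99 and S100a9 from -0.84 to 1.64 for CAA averaged. For stress averaged Prtn3 ran from -0.013 to 0.50, S100a8 from -0.19 to 1.86 and S100a9 from -0.26 to 2.32. Within WT, the stress values ran from -0.24 to 2.07 for S100a8 and from -0.19 to 0.30 for Csf3r. Within CAA, Padi2 under stress ran from -0.48 to 0.20, Prtn3 from -0.60 to 0.42, S100a8 from -0.96 to 3.14 and S100a9 from -1.10 to 4.06. For the interaction S100a8 ran from -1.72 to 2.56 and S100a9 from -1.66 to 3.49. A group left with 1 library is assumed to vary like the others. Same-numbered libraries of different groups did not deviate together (r from -0.30 to 0.092 over 6 pairs of groups). This cannot exclude a pairing, because each group has 2 libraries and these also differ in sex or striatal markers in some groups. With the replicate block Padi2 for CAA averaged was 0.62, 0 members and 2, 0, 0, 0 and 0 of all genes were called. For 5 members the depth allows only sums of counts.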

Other observations

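Marker lists of other tissues were summed beside the neutrophil genes, and 0 of their tested genes passed edgeR's test in any comparison. For choroid plexus genes, 9 of 10 had a positive log2 fold change for stress averaged (median 1.36, against 0.0034 over all genes), and their sum ran from 163 to 983 CPM over all stressed libraries and from 197 to 394 CPM over all mock ones. The 2 highest were WT stress 2 (983 CPM) and CAA stress 1 (795 CPM), while WT stress 1 (212 CPM) lay within the mock range and CAA stress 2 (163 CPM) was the lowest of the 8. For border macrophages and monocytes 7 of 7 tested genes had a positive value for stress averaged (median 0.31). The same held for stress in WT (7 of 7, median 0.88), but in CAA 4 were positive and 3 negative (median 0.15). The list summed to 22.3 to 31.4 CPM over mock and 28.5 to 37.3 CPM over stressed libraries, which overlap. Mrc1, the mannose receptor of border macrophages, lay at 0.69 ± 0.31 and F13a1, a transglutaminase of the same cells, at 0.56 ± 0.31 for CAA averaged (SE, edgeR adjusted p = 0.593 and 0.642). For striatal neurons 8 of 8 had a positive value for stress averaged (median 0.66), where both libraries low in these genes are mock ones. Of red cell genes 4 were tested, with 4 negative values for CAA averaged (median -1.40) and 4 positive ones for stress averaged (median 1.17), and 1 library, WT stress 1, held most of the counts. Of platelet genes 2 were tested and of keratinocyte genes 3, with medians of 0.15 and 0.83 for CAA averaged. Of the 10 defining neutrophil markers 3 were tested, all among the members described above. Csf3r, which microglia also carry, held 786 of the list's 1143 counts. With Csf3r the list summed to 5.11 to 7.61 CPM in WT libraries and 7.88 to 12.1 CPM in CAA libraries, which do not overlap. Of all single genes tested, 2% were higher without overlap for CAA averaged. In raw counts the list ran from 91 to 139 in WT and from 138 to 214 in CAA, which overlap. The difference of the sums was not tested. Without Csf3r the list summed to 20 to 42 counts in WT libraries and 5 to 98 in CAA libraries, which overlap. CAA mock 1 was then the lowest of the 8.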
